A study of Mus musculus with 6 samples.

Results

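De novo lipogenesis, the making of fatty acids from carbohydrate carbon, was examined through 10 genes in livers of Nrg4 knockout and wild-type mice. The genes were chosen by function, but with earlier results of these data known, so shares over all genes are given as description only. They comprise the enzymes of palmitate synthesis, those that supply its carbon and its NADPH, and regulators of the pathway. All 10 were measured, by 17 of the 28898 probe sets that were annotated to a single gene, and all 10 lay over the limit below which a probe set was treated as dim, as did 12466 of 17097 genes in all. A gene with several probe sets was represented by the one with the highest mean over the 6 arrays.

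Nrg4 encodes neuregulin 4, which brown fat secretes and which acts through ErbB receptors. Livers came from mice labelled as Nrg4 knockout and from wild-type mice, both C57BL/6. Both genotypes began a high-fat diet at an age of 3 months and stayed on it for 8 weeks, and livers were taken in the random-fed state. Each genotype was represented by 3 Affymetrix MG-430 PM strip arrays, each holding 1 RNA pool. The labels used here state neither the number of mice per pool, nor their sex, the deleted part of Nrg4 or the time of day of harvest. The p-values therefore measure the spread between pools. Values are deposited log2 signals, and differences are given as knockout minus wild type on that scale, on which 1 unit is a factor of 2. An adjusted p is from limma, with Benjamini-Hochberg adjustment over the 12466 genes tested and a threshold of 0.05. With 3 against 3 arrays, an exact two-sided permutation test could not have gone below 0.1.

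In the liver, citrate leaves the mitochondrion through the carrier Slc25a1 and is split in the cytosol by Acly into acetyl-CoA and oxaloacetate. Acetyl-CoA carboxylase turns acetyl-CoA into malonyl-CoA, and Fasn uses malonyl-CoA and NADPH to build palmitate. Insulin acts on these genes mainly through SREBP-1c, and glucose through ChREBP, the product of Mlxipl, which binds carbohydrate response elements in promoters such as that of Pklr. Thrsp and Mid1ip1 encode related small proteins that act on acetyl-CoA carboxylase or lipogenic gene programmes, and Thrsp and Me1 are textbook thyroid hormone targets.

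Most of the 10 genes had a higher mean in the knockout, and none passed the test across all genes. The 2 with the clearest separation were Thrsp, 2.07-fold higher, and Me1, 1.61-fold higher, and each showed its difference in 2 probe sets. Mid1ip1 was 1.37-fold and Fasn 1.29-fold higher, while Mlxipl was 1.05-fold higher and Slc25a1 1.06-fold lower, within their errors. At an adjusted p under 0.05, 0 of the 10 were called by limma, against 0.0401% of all genes. Under the looser limit of 0.10, Thrsp and Me1 were called higher, against 0.185% of all genes. At an unadjusted limma p under 0.05, 6 of the 10 were higher and 0 lower, against 7.36% and 2.18% of all genes. In 6 genes every knockout array lay above every wild-type array, which held for 11.7% of all genes. The mean was higher in the knockout in 9 of the 10 genes, against 63.4% of all genes. The median difference of the 10 was 0.33, beside 0.04 over all genes tested. With probe sets averaged per gene in place of taking the brightest, the median of the 10 was 0.14. Then 3 genes had no overlap, against 15.6% of all genes in either direction. With repeated quantile normalization 4 had no overlap, against 14.7% of all genes in either direction.

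The promoters of Thrsp, Mid1ip1 and Me1, which had the 3 largest differences, and the inner of 2 Pklr promoters are shown so that the regulatory letters can be seen beside the values. Each is the 250 bases before a RefSeq start on build GRCm38.p6, read 5′ to 3′ on the strand of the gene. The letters searched on both strands were CCAAT, the TATA box TATAAA, the GC box GGGCGG, the E-box CACGTG, a sterol response element TCACNCCAC, and a carbohydrate response element made of CACGNG and CNCGTG with 5 bases between them. Capitals mark any match, and matches may overlap.
Thrsp, chr7:97417551-97417800, minus strand: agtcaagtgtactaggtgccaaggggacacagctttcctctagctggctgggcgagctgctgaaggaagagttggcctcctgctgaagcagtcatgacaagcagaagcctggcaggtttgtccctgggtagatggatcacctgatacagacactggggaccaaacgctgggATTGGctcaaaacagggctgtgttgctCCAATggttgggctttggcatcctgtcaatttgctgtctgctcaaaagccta
Mid1ip1, chrX:10717115-10717364, plus strand: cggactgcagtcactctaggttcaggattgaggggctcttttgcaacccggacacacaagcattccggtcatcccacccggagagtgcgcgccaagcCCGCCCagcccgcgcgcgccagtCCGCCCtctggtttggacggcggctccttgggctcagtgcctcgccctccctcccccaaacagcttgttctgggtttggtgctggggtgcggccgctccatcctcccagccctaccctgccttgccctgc
Me1, chr9:86695915-86696164, minus strand: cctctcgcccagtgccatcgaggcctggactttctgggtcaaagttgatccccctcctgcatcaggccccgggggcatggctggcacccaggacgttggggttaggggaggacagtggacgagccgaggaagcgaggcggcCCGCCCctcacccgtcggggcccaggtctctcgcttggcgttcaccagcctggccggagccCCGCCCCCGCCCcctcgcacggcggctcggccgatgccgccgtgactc
Pklr, chr3:89136373-89136622, plus strand: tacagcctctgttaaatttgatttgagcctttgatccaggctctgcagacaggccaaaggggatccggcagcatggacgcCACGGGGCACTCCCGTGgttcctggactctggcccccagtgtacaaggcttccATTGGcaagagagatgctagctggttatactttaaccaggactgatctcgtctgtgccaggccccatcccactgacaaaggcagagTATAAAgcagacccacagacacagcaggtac

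All 10 genes had a promoter in the RefSeq set, with 13 starts among them. The Pklr window held the carbohydrate response element, together with a CCAAT box and a TATA box. This element was found in 13 of 32851 promoter windows (0.04%) and in 1 of the 13 windows of these genes. The Thrsp window held 2 CCAAT boxes, 1 on each strand, and no other motif searched. CCAAT was found in 7 of the 13 windows and in 33.85% of all windows. The Mid1ip1 window held 2 GC boxes and the Me1 window 3, all on the strand opposite to the gene, and GC boxes were found in 5 of the 13 windows and in 32.74% of all. E-boxes were found in the windows of Slc25a1 and Mlxipl (6.02% of all windows), the sterol response element in the other Mlxipl window (1.05%), and TATA boxes in those of Acacb and Pklr (12.37%). The other Me1 start, which is not shown, held 1 CCAAT box. Of the motifs searched, none was held by Thrsp, Mid1ip1 and Me1 alike.

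Nrg4 was measured first as a check of the labels. Its log2 signal was 2.56, 2.43 and 2.64 in the knockout arrays, against 4.94, 4.79 and 4.77 in the wild-type arrays, and it fell by 2.30 (SE 0.10, adjusted p = 4.76e-05). The knockout values lay under the dim limit of 2.66, so the size of the fall is uncertain. That limit was not set from background signal, and whether the fall is a lower bound was not determined. Array medians were between 2.98 and 3.04, and the number of arrays limits the precision. The signal at the 5′ ends of Actb and Gapdh, relative to their 3′ ends, was -1.31, -0.70 and -0.65 in knockout arrays 1 to 3, against -0.95, -0.78 and -0.96 in the wild-type arrays. Control probe sets for ribosomal RNA of the small subunit read 5.61 to 6.89 in the knockout and 7.45 to 8.80 in wild type. Whether these differences in RNA bear on the results was not tested.

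**Figure D1:**
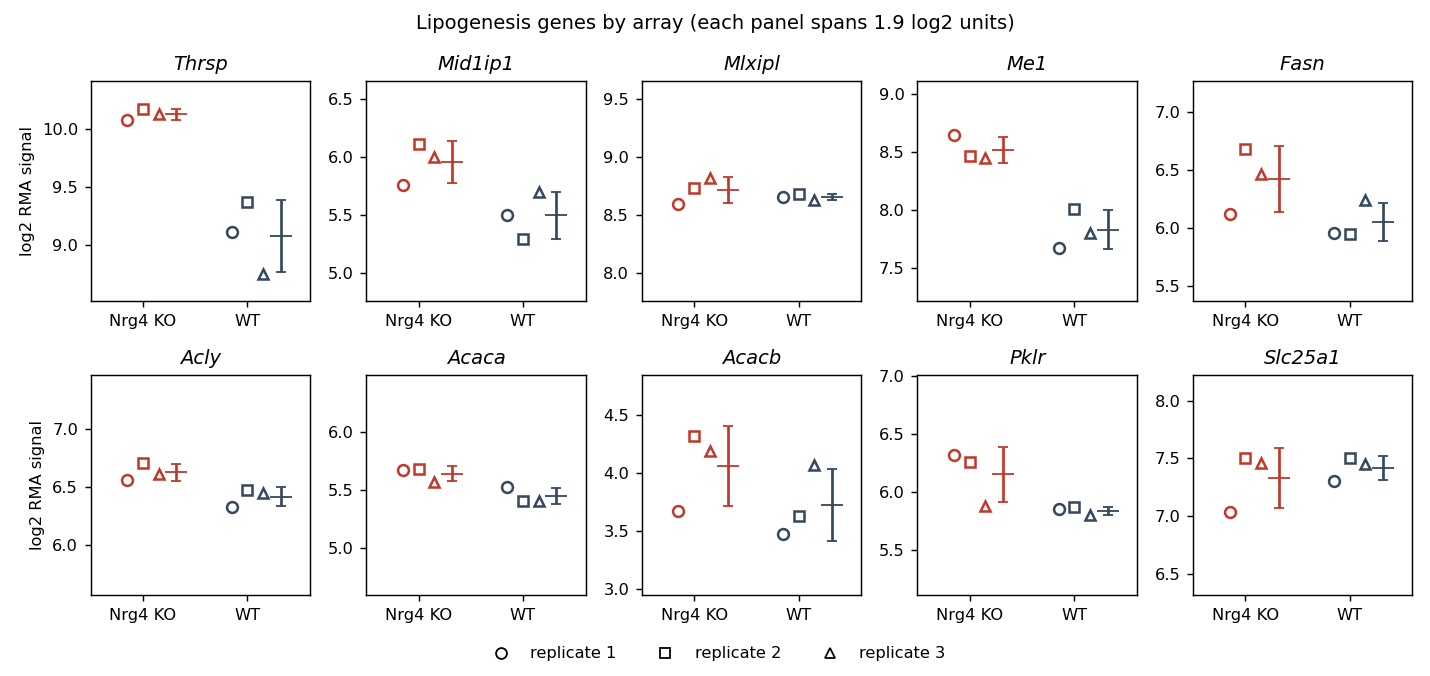
Deposited log2 signal (vertical axis) of the 10 lipogenesis genes in each Nrg4 KO and WT array; symbols mark the replicate number and the horizontal bar with whiskers gives the mean ± SD (n = 3). The 3 KO values of Thrsp and of Me1 lie above all WT values, while those of Mlxipl, Fasn, Acacb and Slc25a1 overlap with WT.

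Among the regulators, Thrsp, a lipogenic factor of the nucleus and cytosol, showed the largest difference. Its signal was 10.08, 10.18 and 10.13 in the knockout arrays and 9.11, 9.37 and 8.76 in the wild-type arrays. The groups did not overlap, and the gap of 0.71 between the lowest knockout and the highest wild-type array was wider than the range within either genotype. The difference was 1.05 (SE 0.15, 95% interval 0.72 to 1.38), and Thrsp was the 13th of all genes by unadjusted p, with an adjusted p of 0.0627. The knockout arrays spanned 0.09 and the wild-type arrays 0.61. A separate probe set of Thrsp read 8.67, 8.96 and 8.91 in the knockout pools, against 7.69, 8.07 and 7.50 in wild-type pools, a difference of 1.09 (SE 0.15). The probe sets thus gave the same difference within their errors, and in each of them wild-type array 3 was the lowest.

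Mid1ip1, which encodes a paralog of Thrsp that promotes polymerisation of acetyl-CoA carboxylase, was measured by 1 probe set. It read 5.76, 6.12 and 6.00 in the knockout pools, against 5.51, 5.30 and 5.70 in wild-type pools. Knockout array 1 lay just above wild-type array 3, by 0.057, so the groups did not overlap by a margin far smaller than their spread. The difference was 0.46 (SE 0.13, 95% interval 0.15 to 0.76, adjusted p = 0.347). Mlxipl, which encodes the glucose-responsive factor ChREBP, read 8.59, 8.74 and 8.82 in the knockout pools, against 8.65, 8.68 and 8.62 in wild-type pools. All wild-type values lay within the range of the knockout values, and the difference was 0.06 with a 95% interval of -0.14 to 0.27 (adjusted p = 0.853). Mlxipl had a single probe set, and the isoforms it detects were not determined.

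Of the genes that supply the pathway, Me1, the cytosolic malic enzyme that makes NADPH, stood highest. It read 8.65, 8.46 and 8.45 in the knockout pools, against 7.68, 8.01 and 7.80 in wild-type pools. The groups were 0.44 apart at their nearest arrays, more than the range within either. The difference was 0.69 (SE 0.11, 95% interval 0.44 to 0.94), which was the 28th of all genes by unadjusted p, with an adjusted p of 0.0853. The other Me1 probe set read 8.19, 7.82 and 7.85 in the knockout pools, against 7.002, 7.16 and 6.79 in wild-type pools. Its difference was larger, at 0.97 (SE 0.14), and it did not overlap between genotypes either. Me1 lies on chromosome 9, as does Nrg4, and in RefSeq order 170 of the genes tested lie between them. Whether the shared chromosome bears on the Me1 difference was not tested. None of the other 9 genes lies on that chromosome.

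Pklr, the pyruvate kinase of liver and red blood cells at the last step of glycolysis, read 6.32, 6.25 and 5.88 in the knockout pools, against 5.85, 5.87 and 5.80 in wild-type pools. Knockout array 3 lay 0.015 above the highest wild-type array, and knockout arrays 1 and 2 lay clear of it. The difference was 0.32 (SE 0.12, adjusted p = 0.481). The 2 dimmer Pklr probe sets gave differences of 0.10 (SE 0.09) and 0.01 (SE 0.11), and both overlapped between genotypes. Slc25a1, the mitochondrial citrate carrier, was the only member with a lower mean in the knockout. It read 7.04, 7.51 and 7.46 in the knockout pools, against 7.30, 7.50 and 7.45 in wild-type pools, a difference of -0.08 (SE 0.13, 95% interval -0.39 to 0.22, adjusted p = 0.875). The groups overlapped, and the low value of knockout array 1 gave the difference its sign, which was 0.065 without that array.

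Acly, ATP citrate lyase, read 6.56, 6.70 and 6.61 in the knockout pools, against 6.32, 6.47 and 6.44 in wild-type pools. The groups did not overlap, with a difference of 0.21 (SE 0.09, adjusted p = 0.511). A dimmer Acly probe set, with a mean of 3.93, read 3.43, 4.14 and 4.06 in the knockout pools, against 3.88, 4.05 and 4.01 in wild-type pools, and its difference was -0.11 (SE 0.17). The mean differences of the Acly probe sets therefore had opposite signs, though that of the dimmer one was within its error. Its sign came from knockout array 1. Knockout arrays 2 and 3 lay above all wild-type values by margins smaller than the SE, array 3 at 4.055 against 4.051 in wild-type array 2.

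**Figure D2:**
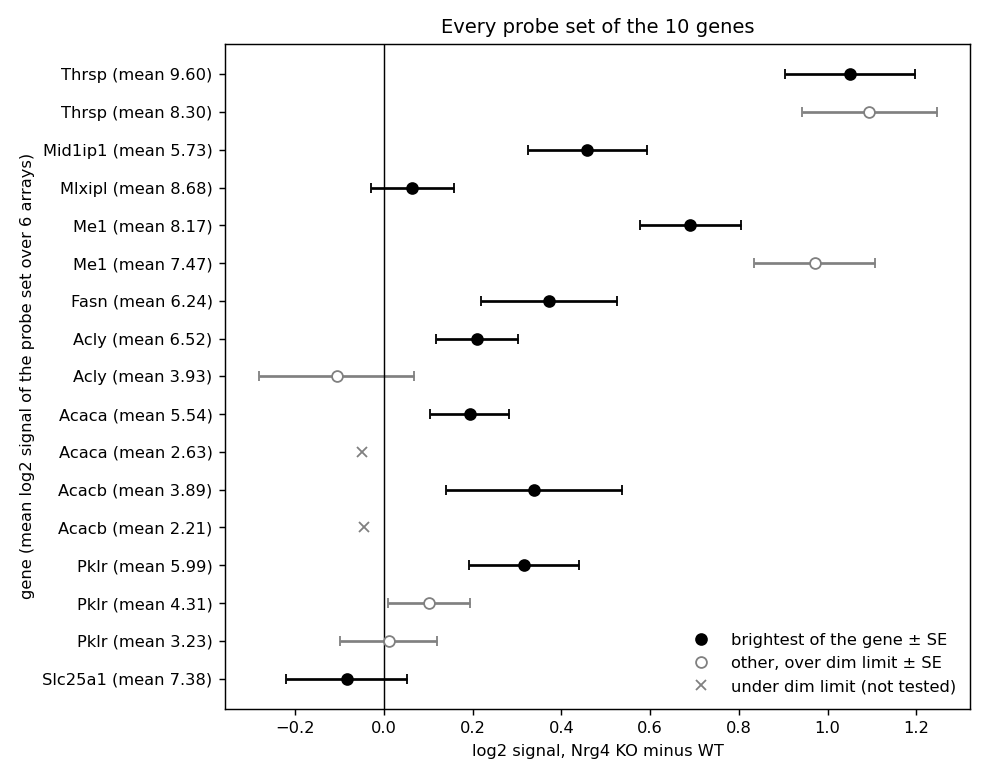
Difference in log2 signal, Nrg4 KO minus WT (horizontal axis), for each of the 17 probe sets of the 10 genes, with the mean signal of the probe set beside the name; bars are limma SEs (n = 3 arrays per genotype) for the 15 probe sets over the dim limit, and the 2 under it were not tested and have no bar. Both probe sets of Thrsp and both of Me1 lie between 0.69 and 1.09, while the dimmer probe sets of Acly, Acaca, Acacb and Pklr lie near 0.

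At the synthesis steps the differences were smaller than for Thrsp and Me1. Fasn, fatty acid synthase, read 6.11, 6.68 and 6.47 in the knockout pools, against 5.96, 5.95 and 6.24 in wild-type pools. Knockout array 1 lay below wild-type array 3, and the difference was 0.37 (SE 0.15, 95% interval 0.02 to 0.72, adjusted p = 0.501). Fasn had a single probe set.

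Acaca encodes the cytosolic acetyl-CoA carboxylase that provides malonyl-CoA for synthesis. It read 5.67, 5.68 and 5.56 in the knockout pools, against 5.53, 5.40 and 5.40 in wild-type pools, without overlap, a difference of 0.19 (SE 0.09, adjusted p = 0.523). Acacb encodes the carboxylase at the mitochondrial surface, whose malonyl-CoA restrains entry of fatty acids through Cpt1a. It read 3.67, 4.32 and 4.19 in the knockout pools, against 3.47, 3.63 and 4.07 in wild-type pools. The knockout arrays spanned 0.65 and the wild-type arrays 0.60, and they overlapped, and the difference was 0.34 (SE 0.20, adjusted p = 0.615). A further probe set of each carboxylase lay under the dim limit and was not tested. Their knockout means were 2.61 for Acaca and 2.19 for Acacb, against 2.65 and 2.24 in wild type.

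Fitted one by one over the 19018 single-gene probe sets above the dim limit, none of the members' 15 such probe sets passed at 0.05, where 0.0368% of probe sets did. At an adjusted p under 0.10, 4 were called higher, both of Thrsp and both of Me1, against 0.147% of all probe sets. The probe sets of a gene read the same RNA on the same arrays and are not independent evidence.

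The arrays of a genotype differed in a way that ran through several of the genes. Knockout array 1 was the lowest knockout array for 7 of the 10 genes and knockout array 2 the highest for 7. The mean deviation of the 10 genes from their genotype means was -0.11, 0.11 and 0.00 in knockout arrays 1 to 3, and -0.06, 0.02 and 0.03 in wild-type arrays 1 to 3. Over all genes tested, deviations in knockout array 1 correlated at -0.63 with those in array 2 and -0.62 with those in array 3. Knockout arrays 2 and 3 correlated at -0.22, so over all genes they were nearer to each other than to array 1. Deviations of the arrays of a genotype from their own mean cancel out, which by itself makes such correlations negative. In wild type they were -0.31 for arrays 1 and 2, -0.71 for 1 and 3 and -0.46 for 2 and 3, so uneven values were not particular to the knockout. The share of all genes lowest in knockout array 1 was not computed. Thrsp, Fasn, Acacb, Mid1ip1, Mlxipl, Acly and Slc25a1 were lowest in knockout array 1 among the knockouts, whereas Me1 and Pklr were highest there. Knockout array 1 also had the lowest 5′ to 3′ ratio of the control transcripts, and the part of RNA integrity in this pattern was not tested. Without this array all 10 genes had a higher mean in the knockout, with a median difference of 0.38, and 9 had no overlap, where 35.9% of all genes then had none.

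Among the wild-type arrays the order varied between genes, though array 2 was the highest for 6 of the 10 and the lowest for 2. Wild-type array 3 was the lowest for Thrsp, Mlxipl, Acaca and Pklr and the highest for Mid1ip1, Fasn and Acacb. Relative to each gene's mean over all arrays, Thrsp stood at -0.85 in that array, while Fasn stood at 0.01 and Acacb at 0.18. With Thrsp and Me1 set aside, a choice made after their values were seen, the other 8 genes averaged -0.03, 0.25 and 0.13 in knockout arrays 1 to 3 and -0.17, -0.15 and -0.03 in wild-type arrays 1 to 3. Knockout array 1 and wild-type array 3 then stood at the same level to 2 decimals, so these 8 did not separate the genotypes on every array.

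**Figure D3:**
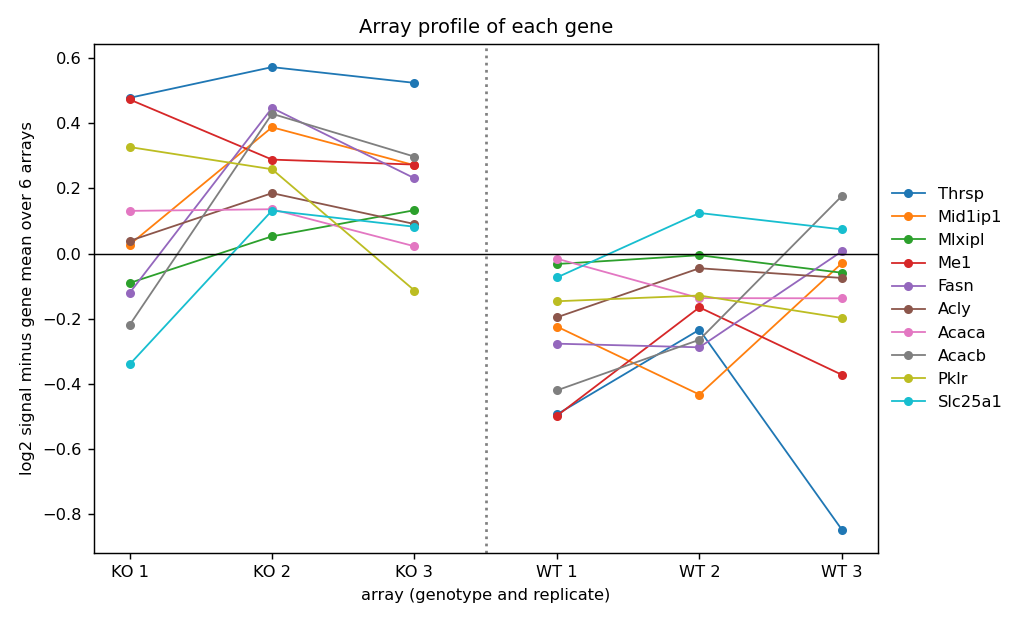
Log2 signal of each of the 10 genes minus its mean over the 6 arrays (vertical axis), by array, with KO arrays left of the dotted line and WT arrays right of it; lines only join the values of a gene. Thrsp and Me1 lie between 0.27 and 0.57 in the KO arrays and between -0.85 and -0.17 in the WT arrays, while Fasn, Acacb and Slc25a1 are below 0 in KO array 1.

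Likeness to Thrsp was measured as the root mean square difference between array profiles, each centred on its mean over the 6 arrays. Of the other members, Me1 came nearest, at 0.25, the 14th of all genes tested, and Slc25a1 was farthest at 0.61. Outside the members the 5 nearest were Gstt3, a glutathione S-transferase, at 0.14, Tex12, a synaptonemal complex component, at 0.17, and Igfbp3, an IGF-binding protein, Treml4, a receptor of myeloid cells, and Col14a1, a collagen, at 0.20 each. Gstt3 read 6.90, 6.81 and 6.83 in the knockout pools, against 6.01, 6.43 and 5.62 in wild-type pools, and like Thrsp it was lowest in wild-type array 3 and highest in array 2 of that genotype. Its difference was 0.83 (adjusted p = 0.208). Of these 5, only Tex12 passed the test, with a rise of 0.85 (adjusted p = 0.0275). The profiles share the difference between genotypes, so genes of large difference come near to Thrsp for that alone.

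The other genes of the pathway were described as lists, each set against the median of 0.04 over all genes tested, and no member of any list passed at an adjusted p under 0.05. Of 12 transcriptional regulators tested, 6 had a higher and 6 a lower mean in the knockout, with a median of 0.01. Mlxip, a paralog of Mlxipl, stood at 0.41, Insig2, which retains SREBP precursors in the endoplasmic reticulum, at 0.26, and Pparg at 0.51. These 3 of the 12 were higher at an unadjusted limma p under 0.05, against 7.36% of all genes. Their adjusted p-values were 0.256, 0.423 and 0.481. Mlxip had a low signal, at 3.62, 3.75 and 3.85 in the knockout pools, against 3.32, 3.24 and 3.44 in wild-type pools. Nr1h3, the liver X receptor alpha, stood at -0.02. Srebf1 was not analysed here.

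Genes that supply acetyl-CoA and NADPH had a median of 0.08, with 9 of 12 higher. Aacs, acetoacetyl-CoA synthetase, read 5.96, 6.23 and 6.21 in the knockout pools, against 5.87, 5.27 and 5.57 in wild-type pools, a difference of 0.56 (adjusted p = 0.321). Of the pentose phosphate pathway, another source of NADPH, Pgd, which makes NADPH, and Pgls stood at 0.15, Taldo1 at 0.14 and Tkt at 0.10, and each overlapped between genotypes. The first enzyme of that pathway was not analysed here. Idh1, another cytosolic source of NADPH, stood at -0.01. Of the NADPH-producing enzymes tested, Me1 thus had the largest difference, and the differences between enzymes were not tested.

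Genes of carboxylase control and malonyl-CoA use had a median of 0.12, with 10 of 12 higher. Stk11, the kinase LKB1 upstream of AMPK, and Prkab2, an AMPK subunit, both stood at 0.23, with adjusted p-values of 0.44 and 0.455, and Prkab1 stood at 0.21. Cpt1a, the malonyl-CoA-sensitive carnitine palmitoyltransferase, stood at 0.11. Desaturation and elongation genes had a median of 0.03, with 6 of 9 higher. Scd1, the stearoyl-CoA desaturase, read 11.35, 11.29 and 11.36 in the knockout pools, against 10.87, 11.13 and 11.04 in wild-type pools, without overlap (difference 0.32, adjusted p = 0.35). Elovl5 stood at 0.23, Elovl2 at -0.08 and Elovl6, which lengthens palmitate, at -0.09.

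Genes of glucose and fructose entry and other ChREBP targets went both ways, with 6 of 10 higher and a median of 0.06. Txnip, a thioredoxin-binding protein and glucose-induced ChREBP target, read 8.14, 8.12 and 8.40 in the knockout pools, against 8.61, 8.74 and 8.82 in wild-type pools. All knockout values lay below the wild-type values, which held for 3.92% of all genes, with a difference of -0.50 (SE 0.11, adjusted p = 0.202). Tkfc and Khk, which pass fructose carbon into glycolysis, stood at 0.33 and 0.20. The 6 thyroid hormone receptors and responsive genes, of which Gpd2 stood at 0.18, Thrb at 0.08 and Dio1 at 0.07, had a median of 0.06, and each overlapped between genotypes.

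**Figure D4:**
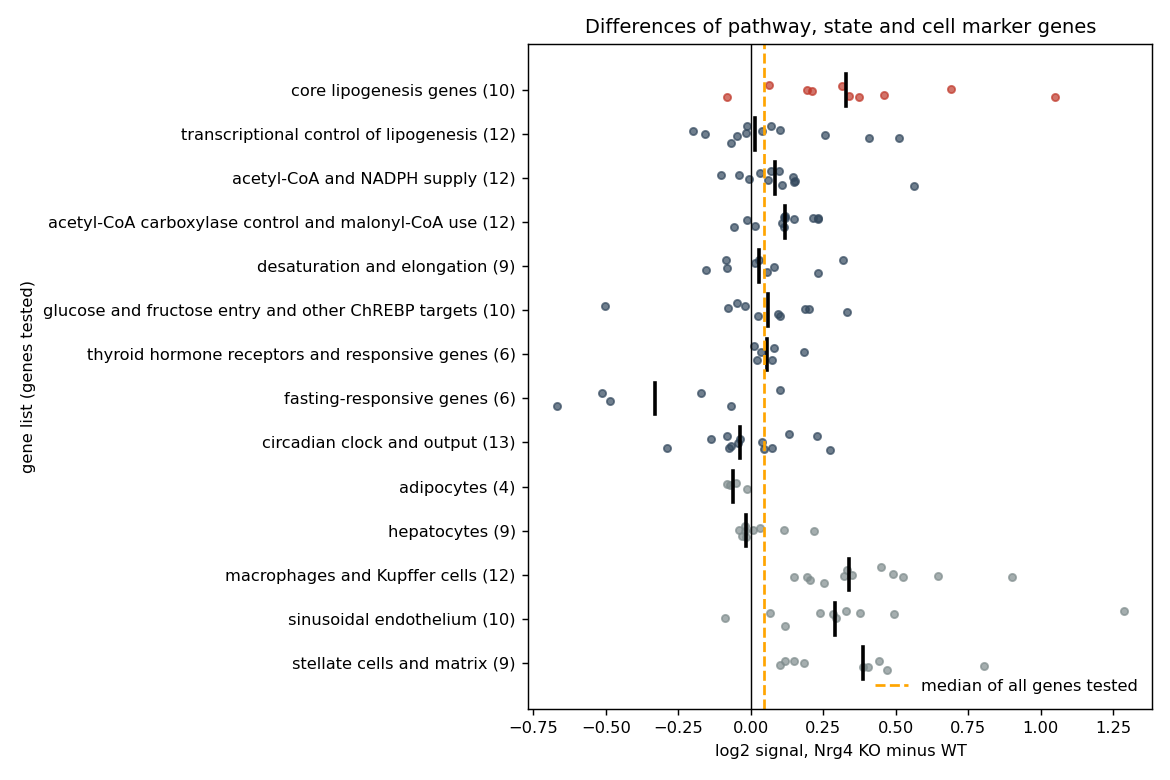
Difference in log2 signal, Nrg4 KO minus WT (horizontal axis), of every gene tested in the core lipogenesis set and in the lists of pathway, state and cell marker genes; points are genes, vertical strokes list medians and the dashed line the median over all genes tested. The median of the core set is 0.33, those of the pathway lists lie between 0.01 and 0.12, and the macrophage, endothelial and stellate cell lists lie between 0.29 and 0.39.

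Feeding and the time of day both set the level of lipogenic genes, so genes that follow them were read on the same arrays. Of 6 fasting-responsive genes, 5 had a lower mean in the knockout, with a median of -0.33. Acot1, an acyl-CoA thioesterase induced by fasting, stood at -0.67 (adjusted p = 0.11), Fgf21, a hormone induced by fasting, at -0.51 and Pdk4, a kinase that restrains pyruvate oxidation, at -0.49. Of the 13 clock genes tested, 6 were higher and 7 lower, with a median of -0.04. Cry1 stood at 0.23, Nr1d2 at -0.14 and Clock at -0.29, and none had an unadjusted p under 0.05. The part of feeding state in the lipogenic differences was not tested.

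In bulk liver, fewer cells of a type and less RNA per cell cannot be told apart, and other cells also express lipogenic genes. Hepatocyte markers had a median of -0.02 over 9 tested, and their summed log2 level was 14.71 to 14.76 in the knockout and 14.71 to 14.75 in wild type. Tat stood at 0.22, Fgb at 0.11 and Ttr at -0.04, and each overlapped between genotypes. Adipocytes, in which the lipogenic enzymes are abundant, had low markers. Of the 7 measured, 3 lay under the dim limit, among them Adipoq, at 2.21, 2.37 and 2.32 in the knockout pools, against 2.38, 2.53 and 3.19 in wild-type pools, and Lep. The summed adipocyte level was 5.72 to 5.89 in the knockout and 5.85 to 6.00 in wild type, and the 4 tested had a median of -0.06, with Trarg1 at -0.07, Ucp1 at -0.08 and Retn at -0.05.

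Most markers of other liver cells had a higher mean in the knockout, as did most of the 10 lipogenic genes and 63.4% of all genes tested. All 12 macrophage markers had a higher mean, with a median of 0.34 and a summed level of 10.58 to 11.17 in the knockout against 10.47 to 10.62 in wild type. The lowest knockout sum was that of array 1, which lay below wild-type arrays 1 and 3, at 10.62 and 10.60. Adgre1, a surface marker of macrophages, stood at 0.64, Mpeg1 at 0.45 and Cd5l at 0.35. Endothelial markers had a median of 0.29, with 9 of 10 higher and summed levels of 9.78 to 10.003 against 9.44 to 9.98, and Lyve1, Ptprb and Cdh5 stood at 1.29, 0.49 and 0.38. Of the 10 stellate cell and matrix markers measured, 9 were tested and all 9 were higher, with a median of 0.39 and summed levels of 10.19 to 10.33 against 9.73 to 9.98, Col3a1 standing at 0.80, Vim at 0.47 and Dcn at 0.40. The part of these cells in the lipogenic differences was not tested.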

How the data were processed

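Liver RNA (250 ng per pool) was prepared with an IVT labelling kit for 6 arrays, 3 per genotype, per the labels. The deposited values are log2 signals that the authors made with RMA, which corrects background, normalizes by quantiles and summarises probes; per the submitters' processing notes the tools were RMA, affy and limma; versions and build: not given in the sources used here. Quantile normalization makes array distributions alike, and so shrinks any shift of most genes one way.

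The arrays held 45141 probe sets, among them 104 controls. A single gene symbol was annotated to 28898, several to 551 and none to 15588, and only the first kind entered gene tests. The dim limit, log2 2.66, was the 40th percentile of the means of non-control probe sets; it was not set from background signal. Genotypes were compared with limma 3.58.1 in R 4.3.3 (lmFit, eBayes, two-sided). The test was run on simulated data for the 12466 genes, with 200 changed genes in each of 10 draws. It found 36.9% of genes changed by 0.5 and 87% of those changed by 1, and 4.94% of calls were false. The simulation used independent normal noise and random signs of change. It changed many more genes than the 5 called in these data, which eases the adjustment, so its rates cannot be taken as those of the test here. Promoters came from RefSeq tables of GRCm38.p6. Figures were drawn with matplotlib 3.10.9.

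The members, lists and tests were chosen with earlier results of these data known. Genes named are all members, Nrg4, the 3 genes of smallest p in each list and the 5 nearest to Thrsp; Nr1h3, Taldo1, Tkt, Idh1, Cpt1a, Elovl6, Adipoq and Lep were added after values were seen. Alternatives were other normalizations, filters, variance priors, array weights, probe set summaries, a replicate block, leaving out each array, a threshold of 0.10 and single probe sets.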

Additional observations from a re-analysis of the deposited data

How the results depend on the processing

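Under 15 refits, the 10 genes gave 150 values, of which 146 kept their direction and their side of the threshold. The number past an adjusted p of 0.05 was 0 in the report, 2 with an intensity trend (Thrsp, adjusted p = 0.0147, and Me1, adjusted p = 0.0273), 1 with array weights (Thrsp, adjusted p = 0.0448) and 2 at an adjusted p under 0.10. It was 0 in every other refit. Over all genes the trend called 29, array weights 50, an adjusted p under 0.10 called 30, repeated quantile normalization 8, a filter at the 60th percentile 3 and the mean of probe sets 3, against 5 in the report. Without knockout replicate 1 it was 17, and without any one of the other arrays 1 or 2. With the mean of all probe sets the median difference was 0.14 and 3 genes had no overlap, since dimmer probe sets enter the mean. Of all genes, 15.6% then had no overlap. Leaving out each array gave medians of 0.22 to 0.38, 9 to 10 higher genes, 6 to 9 without overlap and 0 past the threshold. Fewer arrays make overlap rarer, and 21% to 35.9% of all genes had none in these refits, against 15.6% in the report. Thrsp lay between 0.89 and 1.20. Slc25a1 lay between -0.17 and 0.065, positive only without knockout replicate 1. Nrg4 passed in every refit, at -2.34 to -2.24. Over all refits the adjusted p of Thrsp lay between 0.0147 and 0.219.

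Deviations of arrays with the same replicate number correlated at -0.15, 0.03 and -0.01 across genes, so the numbers were not taken as pairs. With the replicate block 0 of the 10 genes and 2 of all genes passed, with Nrg4 at an adjusted p of 0.00205, Thrsp at 0.132 and the median difference at 0.33. The report's 95% intervals rest on 3 arrays per genotype, so for genes such as Acacb differences of up to 0.79 were within the interval. Signal over background was not available in the deposited values.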
